A study of Mus musculus with 6 samples.

Results

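The secondary and tertiary granule genes of neutrophils are described here in LSKs, the bone marrow cells that lack lineage markers and carry Sca-1 and c-Kit, a fraction that holds hematopoietic stem and early progenitor cells. A total of 10 of the 55487 genes in the deposited table were chosen by name: Ltf, Lcn2, Camp, Ngp, Chil3, Fcnb, Cd177, Mmp8, Mmp9 and Retnlg. The data were 6 RNA-seq libraries, 3 from irradiated wild-type littermates (Tespa1+/+) and 3 from irradiated Tespa1-null mice (Tespa1-/-). Per the methods of the study, the null allele was germline (B6.129S-Tespa1tm1Smoc, backcrossed to C57BL/6), the mice were males of 8 to 10 weeks, both groups received 5 Gy of total body irradiation, and LSKs were taken at day 13. No unirradiated library was among these samples, and the sources used do not say if each library came from 1 mouse or from several, so p-values measure the spread between these samples, which may in part be technical.

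Neutrophils load their granules in a fixed order while they mature. Primary (azurophilic) granules, which carry myeloperoxidase and the serine proteases, are filled at the promyelocyte stage. Secondary (specific) granules, which carry lactoferrin, lipocalin-2 and cathelicidin, follow in myelocytes and metamyelocytes, and tertiary (gelatinase) granules, which carry Mmp9, come last. Transcription of the secondary set depends on C/EBPε, a factor of the granulocyte lineage.

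Because C/EBPε acts on the secondary set, the sequence upstream of the start sites of the 10 genes was examined for C/EBP letters, among others. RefSeq promoter windows (GRCm38.p6), which run from 250 bases before to 50 after the start, were found for 9 of the 10 genes, all but Mmp9. The windows were searched on both strands for the C/EBP letters TTNNGNAA. The 4 stretches below belong to genes that were near 0 in wild-type LSKs. Each is the nearest 120 bases upstream of both the RefSeq start and the GENCODE gene, and carries at least 1 match. Matches farther upstream are not shown, such as those that begin 246 bases before the start in Retnlg and 217 before it in Ltf. Matches are in capitals, and the letters run 5′ to 3′ on the strand of the gene. They lie at chr9:111019151-111019270 (plus strand) for Ltf, chr9:110419627-110419746 (plus) for Ngp, chr3:106167565-106167684 (minus) for Chil3 and chr7:24760312-24760431 (minus) for Cd177.
Ltf: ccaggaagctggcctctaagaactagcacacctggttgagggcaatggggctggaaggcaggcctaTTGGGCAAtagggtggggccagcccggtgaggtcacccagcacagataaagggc
Ngp: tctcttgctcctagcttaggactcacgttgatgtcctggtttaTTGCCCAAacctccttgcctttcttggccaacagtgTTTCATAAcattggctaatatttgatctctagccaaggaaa
Chil3: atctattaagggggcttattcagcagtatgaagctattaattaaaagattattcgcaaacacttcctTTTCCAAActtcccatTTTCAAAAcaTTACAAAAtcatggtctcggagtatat
Cd177: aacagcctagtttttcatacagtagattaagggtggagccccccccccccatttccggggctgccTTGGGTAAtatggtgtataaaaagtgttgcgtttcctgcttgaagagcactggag

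The C/EBP letters were present in 8 of the 9 windows, namely those of Ltf, Lcn2, Ngp, Chil3, Fcnb, Cd177, Mmp8 and Retnlg but not of Camp. For comparison, 40.7% of the 32851 windows of all genes held them, as did 32.4% of the 12662 windows of genes tested here. Ltf and Ngp shared the same 8 letters, TTGGGCAA, beginning 75 bases before the start in Ltf and 11 before it in Ngp. That Ngp match lies inside the GENCODE gene and is not in the stretch shown. The Ngp stretch shown holds the same letters on the minus strand (TTGCCCAA), beginning 138 bases before the start. The PU.1 letters GAGGAA were in 4 of the 9 windows (28.3% of all windows), the RUNX letters TGTGGT in 1 (16.8%), CCAAT in 6 (37.4%) and GATA in 7 (57.9%). In Ltf a CCAAT match on the minus strand overlaps the C/EBP match. These are matches of letters in short windows and no binding was measured.

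Total counts ranged from 12856630 to 30576981 per library, and every pair of libraries in a group differed by more than sampling noise (chi-square per degree of freedom from 7.29 to 9.46). The targeted gene Tespa1 was lower in Tespa1-/- LSKs (log2 fold change -1.23 ± 0.07 SE, edgeR adjusted p 7.0e-06) but not absent. Transcripts that define the LSK gate were present in every library, with mean levels of Kit at 332.7 and 169.6 CPM and of Ly6a (Sca-1) at 50.5 and 40.4 CPM in wild-type and Tespa1-/- libraries, respectively. CPM is the count scaled to a library of 1000000 counts, with TMM factors. Of 12 LSK and stem cell genes, 10 were lower in Tespa1-/- LSKs and none was higher (median log2 fold change -1.13). Over all genes tested, 19.2% were lower and 14.0% higher. Kit and Cd34 were not among the lower genes once an offset for union exon length was applied (-0.48 and -0.38).

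To ask how far the granule program differed between the genotypes, each gene was compared in a fit over the 15332 genes that passed a filter on low counts. A gene was called at an edgeR quasi-likelihood adjusted p under 0.05 and a fold over 1.5. All 10 granule genes were called higher in Tespa1-/- LSKs, against 14.0% of all genes tested, and in all 10 every Tespa1-/- library lay above every Tespa1+/+ library, which held for 34.5% of the genes tested. Their median log2 fold change was 5.60, against -0.00 over all genes. These counts are a description only, because 7 of the 10 passed the filter solely through their Tespa1-/- counts and so had to differ. Only Lcn2, Fcnb and Mmp8 reached the cutoff in all 3 Tespa1+/+ libraries. The summed level of the 10 genes was 19.98 to 22.26 CPM in Tespa1+/+ libraries and 317.5 to 335.4 CPM in Tespa1-/- libraries. In bulk RNA, more cells that express a gene and more transcript per cell cannot be told apart.

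**Figure D1:**
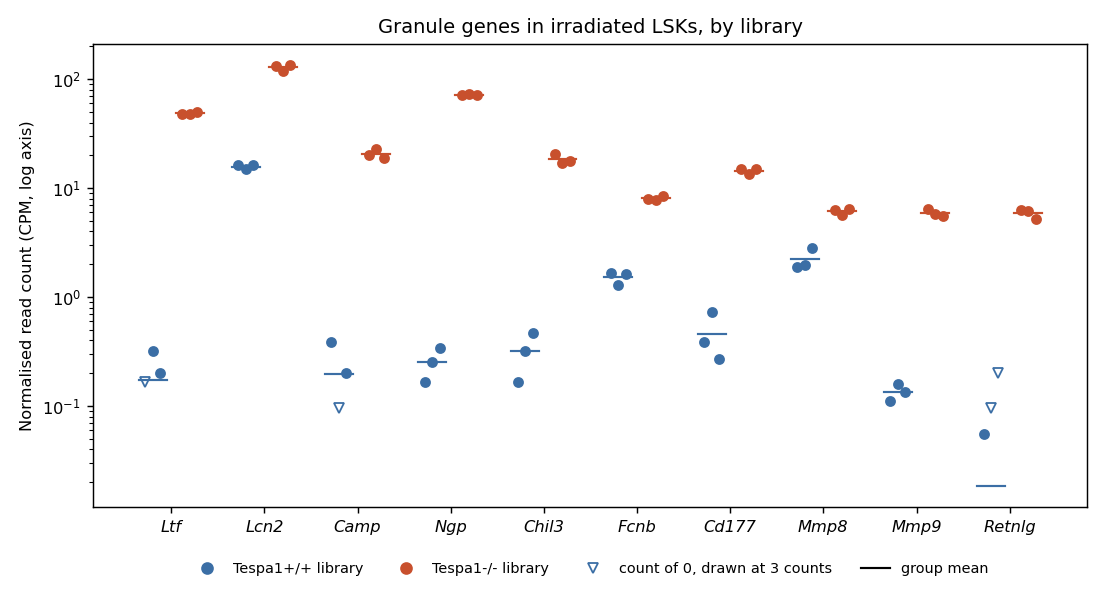
Normalised read count (CPM, log axis) of each granule gene in each of the 6 libraries, with blue points for Tespa1+/+, red points for Tespa1-/- and a line at each group mean. Libraries with a count of 0 are drawn as open triangles at the level of 3 counts; the red points lie above the blue points for each of the 10 genes, and Lcn2, Fcnb and Mmp8 are the genes with blue points above 1 CPM.

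Among the secondary granule proteins, Ltf encodes lactoferrin, an iron-binding antimicrobial protein (ENSMUSG00000032496, GRCm38 chromosome 9, 111019271 to 111042767). Its counts were 0, 10 and 3 in the wild type and 823, 689 and 625 in the Tespa1-/- libraries. A count of 0 in the first Tespa1+/+ library allows up to 0.165 CPM, the level of 3 counts. The mean level rose from 0.173 ± 0.160 to 48.7 ± 1.51 CPM (SD, n = 3 per group), with a log2 fold change of 7.89 ± 0.31 (SE) at an edgeR adjusted p of 2.1e-06. With so few wild-type counts the size is uncertain: the ratio of the summed counts per library size was 241, with an exact 95% interval of 141 to 454 that covers counting error only. Without Tespa1+/+ replicate 2 the ratio was 535 and the log2 fold change 8.95.

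Ngp, neutrophilic granule protein, is a cystatin-like protein of the same granules (ENSMUSG00000032484, chromosome 9, 110419747 to 110423012). It had counts of 3, 8 and 5 in the wild type and of 1226, 1054 and 885 in Tespa1-/- libraries. After scaling, the 3 Tespa1-/- libraries lay within 71.4 to 72.6 CPM, against a mean of 0.252 ± 0.0861 CPM (SD, n = 3) in Tespa1+/+ libraries. The log2 fold change of 8.14 ± 0.12 (SE) at an edgeR adjusted p of 9.2e-08 was the largest of the 10 genes in this fit, and the counting ratio was 290.5 (95% interval 179 to 509). The order of the largest folds was not fixed, since DESeq2 gave 8.18 for Ngp and 8.40 for Retnlg.

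Camp encodes the precursor of the cathelicidin peptide CRAMP (ENSMUSG00000038357, chromosome 9, 109847379 to 109849617). It was counted 7, 0 and 3 times in the wild type, and 346, 332 and 234 times in the Tespa1-/- libraries. The means were 0.196 ± 0.193 and 20.7 ± 2.02 CPM (SD, n = 3 per group), a log2 fold change of 6.97 ± 0.46 (SE) at an edgeR adjusted p of 1.6e-05. Single wild-type libraries set the size of this fold, since the counting ratio of 134 (95% interval 72.5 to 280.3) became 321 without Tespa1+/+ replicate 1 and 68.5 without replicate 2, with fitted values of 8.16 and 6.07. Camp, Ngp and Ltf lie in this order on chromosome 9.

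Lcn2 differed from these in that it was counted at least 240 times in each wild-type library. It encodes lipocalin-2, which binds bacterial siderophores (ENSMUSG00000026822, chromosome 2, 32384633 to 32388252). Counts were 293, 472 and 240 in the wild type and 2255, 1724 and 1671 in Tespa1-/- libraries. Its level rose from 15.8 ± 0.701 to 128.6 ± 8.64 CPM (SD, n = 3 per group), and replicate 2 was the lowest Tespa1-/- library. The log2 fold change was 3.03 ± 0.07 (SE) at an edgeR adjusted p of 4.1e-07, and the interval of the counting ratio was narrow, at 7.72 to 8.84 around 8.26.

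Chil3, also called Ym1, is a chitinase-like lectin of maturing neutrophils and some macrophages (ENSMUSG00000040809, chromosome 3, 106147554 to 106167564). Its counts were 3, 10 and 7 in the wild type and 348, 247 and 218 in Tespa1-/- libraries, or 0.318 ± 0.153 and 18.3 ± 1.83 CPM (SD, n = 3 per group). The log2 fold change was 5.86 ± 0.22 (SE) at an edgeR adjusted p of 1.8e-06 and the counting ratio 59.7 (95% interval 38.4 to 98.3). Its relatives could share reads with it, but Chil4 and Chil6 were at 0 in each of the 6 libraries. Chil1 was counted 28, 24 and 19 times in Tespa1-/- libraries and 0 times in each Tespa1+/+ library, and was at least 34.8-fold higher against a floor of 3 counts over the wild-type group.

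Fcnb encodes ficolin-B, a lectin that starts the complement cascade (ENSMUSG00000026835, chromosome 2, 28076378 to 28084885). Its wild-type counts of 30, 41 and 24 were well above 0, and its counts in Tespa1-/- libraries were 135, 112 and 106. The level rose from 1.52 ± 0.195 to 8.06 ± 0.433 CPM (SD, n = 3 per group), which gave a log2 fold change of 2.43 ± 0.14 (SE) at an edgeR adjusted p of 7.4e-06. Fcna, its paralog, had at most 2 counts in any library.

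Cd177 is a surface and specific granule protein of neutrophils (ENSMUSG00000052212, chromosome 7, 24743983 to 24760311). It had counts of 7, 23 and 4 in the wild type and 255, 196 and 185 in Tespa1-/- libraries. The means were 0.461 ± 0.239 and 14.5 ± 0.834 CPM (SD, n = 3 per group), a log2 fold change of 4.80 ± 0.24 (SE) at an edgeR adjusted p of 4.6e-06. Tespa1+/+ replicate 2 was the highest wild-type library, and without it the counting ratio went from 27.5 (95% interval 19.5 to 40.0) to 43.4.

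Of the matrix proteases, Mmp8, the neutrophil collagenase of specific granules, changed least (ENSMUSG00000005800, chromosome 9, 7558456 to 7568485). Its counts were 34, 62 and 42 in the wild type and 107, 82 and 80 in Tespa1-/- libraries, so that the raw counts nearly met while the scaled levels, 1.87 to 2.83 and 5.65 to 6.45 CPM, did not overlap. The log2 fold change was 1.49 ± 0.17 (SE) at an edgeR adjusted p of 2.4e-04, with a counting ratio of 2.86 (95% interval 2.32 to 3.54).

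Mmp9, gelatinase B, is the defining protein of tertiary granules (ENSMUSG00000017737, chromosome 2, 164940780 to 164955850). It was counted 2, 5 and 2 times in the wild type and 109, 84 and 69 times in Tespa1-/- libraries, and its level rose from 0.135 ± 0.0241 to 5.92 ± 0.432 CPM (SD, n = 3 per group), which gave a log2 fold change of 5.35 ± 0.20 (SE) at an edgeR adjusted p of 1.8e-06. Among its relatives, Mmp2, the other gelatinase, was lower (log2 fold change -1.31 ± 0.38 SE, edgeR adjusted p 0.0186), a call that was lost without Tespa1+/+ replicate 2 (edgeR adjusted p 0.0728), without Tespa1+/+ replicate 3 (0.0516) or without Tespa1-/- replicate 1 (0.0670). Mmp3, Mmp10 and Mmp20 were at 0 in all 6 libraries, and Mmp12 and Mmp13 had at most 1 count in any.

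Retnlg, a resistin-like secreted protein of the granulocyte lineage, was the closest to absent in wild-type LSKs (ENSMUSG00000022651, chromosome 16, 48872621 to 48874496). A single count was found over the 3 Tespa1+/+ libraries (1, 0 and 0), against 108, 89 and 65 in the Tespa1-/- libraries. The counts of 0 in replicates 2 and 3 allow up to 0.0950 and 0.202 CPM. The fitted log2 fold change was 8.05 ± 0.41 (SE) at an edgeR adjusted p of 5.0e-06, while the counting ratio of 385 had a 95% interval of 68.5 to 15257, so the data fix its direction far better than its size. Without Tespa1+/+ replicate 1 no wild-type count remained, and the ratio against a floor of 3 counts was at least 92.2, while the fitted value was 9.74. Without Tespa1+/+ replicate 2 the ratio was 196.6 and the fitted value 7.28. Retn and Retnla were at 0 in all 6 libraries and Retnlb had 1 count in each of 2 libraries.

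**Figure D2:**
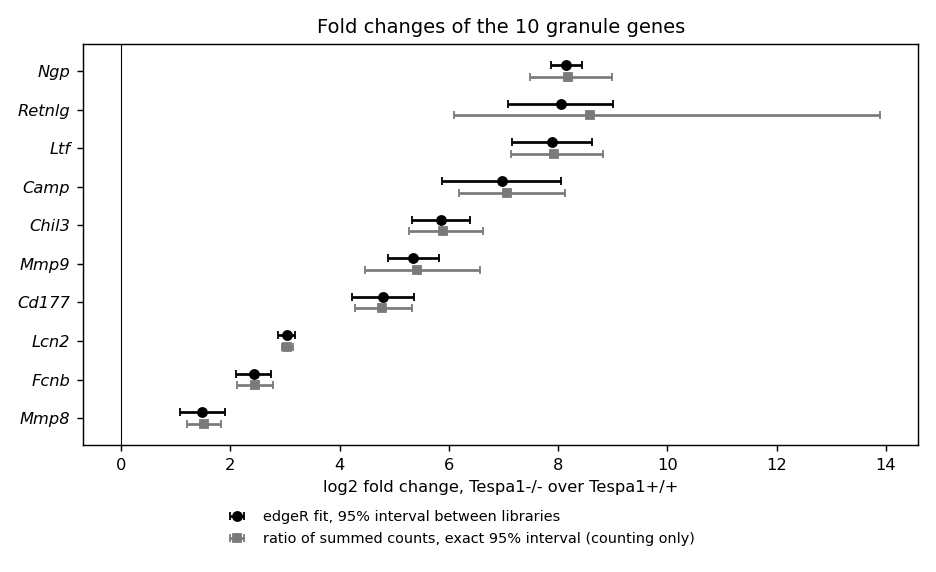
log2 fold change (Tespa1-/- over Tespa1+/+) of each granule gene, with black points for the edgeR fit and its 95% interval between libraries and grey squares for the ratio of summed counts with its exact 95% interval for counting error. The fitted values run from 1.49 for Mmp8 to 8.14 for Ngp, and the widest interval is that of Retnlg, with 1 wild-type count in all.

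The fitted folds depended on the prior count that edgeR adds for genes near 0. With a prior count of 2 in place of the default the log2 fold change of Retnlg was 5.58 in place of 8.05, that of Ltf 7.30 and that of Ngp 7.65, while those of Lcn2, Fcnb and Mmp8 were close to the values above, at 3.02, 2.35 and 1.45. Fold changes in these libraries also followed gene length. With an offset for union exon length the folds of the shorter genes were lower, at 7.66 for Retnlg, 6.59 for Camp and 7.90 for Ngp, and that of the longer Ltf was 7.94.

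**Figure D3:**
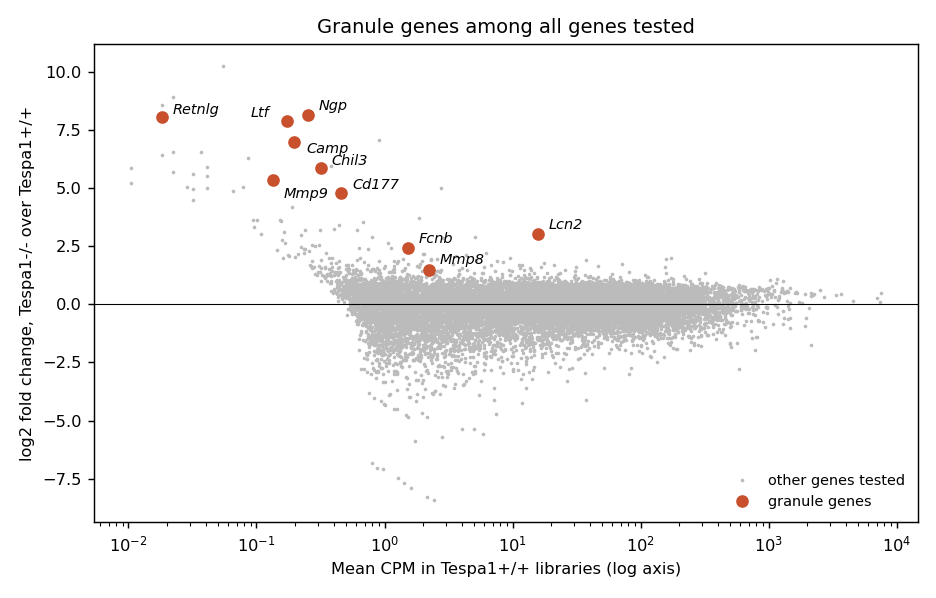
log2 fold change (Tespa1-/- over Tespa1+/+) against mean CPM in Tespa1+/+ libraries (log axis) for the genes tested, with the 10 granule genes in red; genes at 0 in every Tespa1+/+ library are not drawn. From 1.49 for Mmp8 to 8.14 for Ngp, the granule genes lie above 0, and Lcn2 stands at 15.8 CPM in Tespa1+/+ libraries.

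The composition of the granule transcripts also differed. Levels were compared between genes as FPKM, which divides by gene length. In Tespa1+/+ LSKs Lcn2 led with 3.35 ± 0.152 FPKM, followed by Fcnb (1.03 ± 0.134 FPKM) and Mmp8 (0.948 ± 0.226 FPKM, SD, n = 3 per group), whose ranges overlapped. The other 7 genes had means of 0.267 FPKM or less. In Tespa1-/- LSKs Ngp led with 56.8 ± 0.530 FPKM. Camp (26.3 ± 2.60 FPKM) and Lcn2 (25.5 ± 1.69 FPKM) came next with overlapping ranges. Retnlg at 9.60, Chil3 at 8.53 and Ltf at 8.46 FPKM formed a run in which neighbors overlapped. Fcnb (5.11), Cd177 (4.52), Mmp8 (2.44) and Mmp9 (1.45 FPKM) followed without overlap. Lcn2 thus made up 53.8% of the summed FPKM of the 10 genes in the wild type and 17.1% in Tespa1-/- LSKs, while Ngp went from 3.42% to 38.2%. Which gene length is used matters here: per kilobase of union exon in place of the length behind the deposited FPKM, Lcn2 was at 47.3 ± 3.13 and Camp at 26.3 ± 2.60 in Tespa1-/- LSKs, so that Lcn2 stood above Camp, and Ltf (13.3 to 14.1) stood above Chil3 (10.1 to 12.1) without overlap. On that scale, an alternative chosen after seeing the data, Lcn2 made up 66.7% of the sum in the wild type and 26.4% in Tespa1-/- LSKs, and Ngp 2.29% and 31.7%.

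**Figure D4:**
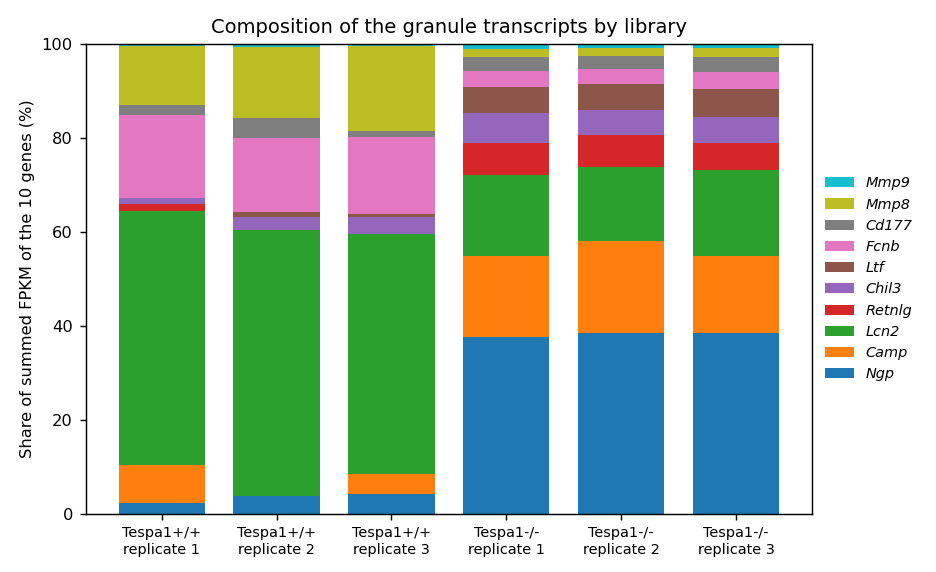
Share of the summed FPKM of the 10 granule genes (%) that each gene held in each library, as stacked bars from 0 to 100%. Lcn2, Fcnb and Mmp8 fill most of the 3 Tespa1+/+ bars, and Ngp, Camp and Lcn2 most of the 3 Tespa1-/- bars, with Ngp at 37.7 to 38.5%.

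Per length, the 10 genes together stayed below Mpo (myeloperoxidase), the most abundant of the 11 listed primary granule genes in the wild type. Their summed FPKM was 0.338 to 0.412% of that of Mpo in Tespa1+/+ libraries and 6.94 to 7.19% in Tespa1-/- libraries. In Tespa1-/- LSKs Ngp, at 56.8 FPKM, stood above Gusb (32.6 FPKM), Prss57 (28.6), Cd63 (24.1), Ctsc (13.5) and Bpi (0.0344). Its place against Gusb and Prss57 depends on the gene length used. The length behind the deposited FPKM was 8003 bases for Gusb and 6168 for Prss57, against 4548 and 2843 bases of union exon. For Ngp both lengths were 1222 bases. On the deposited FPKM, Ngp was also compared with the more abundant genes of the list. It stood far below Elane (2522 FPKM), Mpo (2103.5), Ctsg (1660), Prtn3 (684), Ms4a3 (288) and Srgn (240). Which Tespa1-/- library was highest differed by gene: of the 10 genes, 4 were highest in replicate 1, 2 in replicate 2 and 4 in replicate 3.

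Other proteins of the secondary and tertiary granules were examined through a list of 22 genes. Of 18 that could be tested, 9 were higher, none was lower and 9 were not called, with a median log2 fold change of 0.73. Of all genes tested, 14.0% were higher and 19.2% lower. Mmp25 and Fpr2 passed the filter solely through their Tespa1-/- counts, so their calls are a description only. With at least 10 counts required in every sample, 7 of 16 were higher (median 0.42). Mmp25 had wild-type counts of 3, 5 and 0, and its log2 fold change was 2.30 with a prior count of 2. The higher genes were Lrg1 (2.91), which is stored in specific granules, Mmp25 (3.01), a membrane-bound protease, the haptoglobin gene Hp (1.63), the peptidoglycan-binding gene Pglyrp1 (1.62), Clec5a (1.30), Anxa1 (1.03), the cytochrome b558 subunit gene Cyba (0.92), the protease inhibitor gene Slpi (0.89) and Fpr2, a formyl peptide receptor. Fpr2 had no wild-type count and 19, 15 and 8 counts in Tespa1-/- libraries, at least 20.6-fold higher. Hp was also abundant in wild-type LSKs, with 67.0 FPKM against 3.35 FPKM for Lcn2, and had 154 ± 17.2 CPM in the wild type and 474.8 ± 9.90 CPM in Tespa1-/- libraries (SD, n = 3 per group). Lyz2, the lysozyme gene, did not pass, with 100.2 ± 2.22 and 97.7 ± 3.74 CPM (log2 fold change -0.04 ± 0.04 SE, edgeR adjusted p 0.466). Itgam, which encodes CD11b, did not pass either (-0.57 ± 0.31 SE, edgeR adjusted p 0.152), and its 3 Tespa1-/- counts were uneven at 175, 351 and 341. Olfm4, a marker of a neutrophil subset, had no count in Tespa1+/+ libraries and 14, 8 and 3 in Tespa1-/- libraries, too few to be tested. Ptx3 went the other way, with 0, 5 and 1 counts in the wild type and none in Tespa1-/- libraries. Fpr1 (none against 0, 4 and 4) and Orm1 (0, 1 and 1 against 10, 10 and 0) were not tested either. Among genes not called, Cybb (0.56, edgeR adjusted p 1.8e-05) and Hpse (-0.55, edgeR adjusted p 9.4e-05) lay just under the limit in opposite directions. The number called depended on the processing. With an offset for union exon length, 12 of the 18 were higher (median 0.63), with Cybb (0.85), Qsox1 (0.61) and Ceacam1 (0.62) added. With libraries scaled by totals alone, Hpse was called lower (-0.65).

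Of 11 primary granule genes listed, 10 were tested, 7 were higher and none was lower, and the median log2 fold change was 0.86. Of all genes tested, 14.0% were higher and 19.2% were lower. Bpi, the gene not tested, had at most 5 counts in any library. Ms4a3 (1.36), Ctsg (cathepsin G, 1.08), Prtn3 (proteinase 3, 1.03) and Elane (neutrophil elastase) were among the higher genes. Elane had 1290 ± 77.4 CPM in the wild type and 2573 ± 207 CPM in Tespa1-/- libraries (SD, n = 3 per group). Mpo differed (log2 fold change 0.48 ± 0.02 SE, edgeR adjusted p 5.0e-06) but by less than 1.5-fold.

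Of 14 regulators of granule genes, 3 were higher and 2 were lower (median 0.18), against 14.0% and 19.2% of all genes tested. Cebpe, which encodes C/EBPε, had the largest rise of the list, from 25.6 ± 1.28 to 71.0 ± 1.40 CPM (SD, n = 3 per group), which gave a log2 fold change of 1.47 ± 0.05 (SE) at an edgeR adjusted p of 1.7e-06. Its counts were 475, 838 and 358 in the wild type and 1223, 1044 and 861 in Tespa1-/- libraries. Spi1, the gene of PU.1, was higher (0.67 ± 0.04 SE, edgeR adjusted p 1.0e-05), as was Klf5 (0.74 ± 0.17 SE, edgeR adjusted p 0.00788), both near the 1.5-fold limit; Spi1 fell under it when libraries were scaled by totals alone (0.57). Cux1, whose product represses Ltf in myeloid cell lines, was lower (-0.76 ± 0.03 SE, edgeR adjusted p 2.0e-06), but with an offset for union exon length its direction turned (0.09, edgeR adjusted p 0.0411). Irf8, which favors monocytes over granulocytes, was lower on average (-0.86 ± 0.30 SE, edgeR adjusted p 0.0380) but its libraries overlapped. That call was lost with DESeq2 (adjusted p 0.0617), with the replicate number as a block (edgeR adjusted p 0.0809), with the length offset (0.205) and without Tespa1+/+ replicate 1 (0.103), Tespa1+/+ replicate 2 (0.111), Tespa1-/- replicate 1 (0.114) or Tespa1-/- replicate 2 (0.112). Cebpa (0.33), Cebpb (0.34), Cebpd (0.34), Gfi1 (0.52) and the G-CSF receptor gene Csf3r (-0.13) were not called.

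Transcripts that mark neutrophils past the granule-forming stages were less uniform. Of 16 listed, 13 were tested, 7 were higher and none was lower (median 0.61), against 14.0% higher and 19.2% lower over all genes tested. Wfdc21 (2.84), Ifitm6 (2.17), G0s2 (1.37), Ccl6 (1.12) and Msrb1 (1.10) had the larger rises, and Il1r2 (0.72) and Clec4d (0.61) the smaller. Il1r2 lost its call without Tespa1+/+ replicates 2 or 3 or Tespa1-/- replicates 1 or 3 (edgeR adjusted p from 0.0505 to 0.0573), and Clec4d fell under 1.5-fold without Tespa1+/+ replicate 2 (0.49). The chemokine receptor genes Cxcr2 (0.23, edgeR adjusted p 0.132) and Cxcr4 (-0.07, edgeR adjusted p 0.107) were not called. Ly6g, the neutrophil antigen bound by Gr-1 antibodies, had no count in the wild type and 7, 8 and 4 counts in Tespa1-/- libraries, and Stfa2l1 had none and 9, 14 and 11. Neither could be tested. Per the methods, cells were depleted of lineage-positive cells and stained for antigens that included CD11b and Gr-1. Of 6 genes listed for lineage depletion antigens, 4 were tested, 1 was higher and 0 were lower, against the same 14.0% and 19.2%. The higher gene was Ly6c2, at 251.1 CPM in the wild type and 461.8 CPM in Tespa1-/- libraries (0.88 ± 0.06 SE, edgeR adjusted p 1.5e-05). The summed level of the 16 genes was 612.1 to 623.1 CPM in the wild type and 658.8 to 688.5 CPM in Tespa1-/- libraries, and its part in the rise of the granule genes was not tested.

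**Figure D5:**
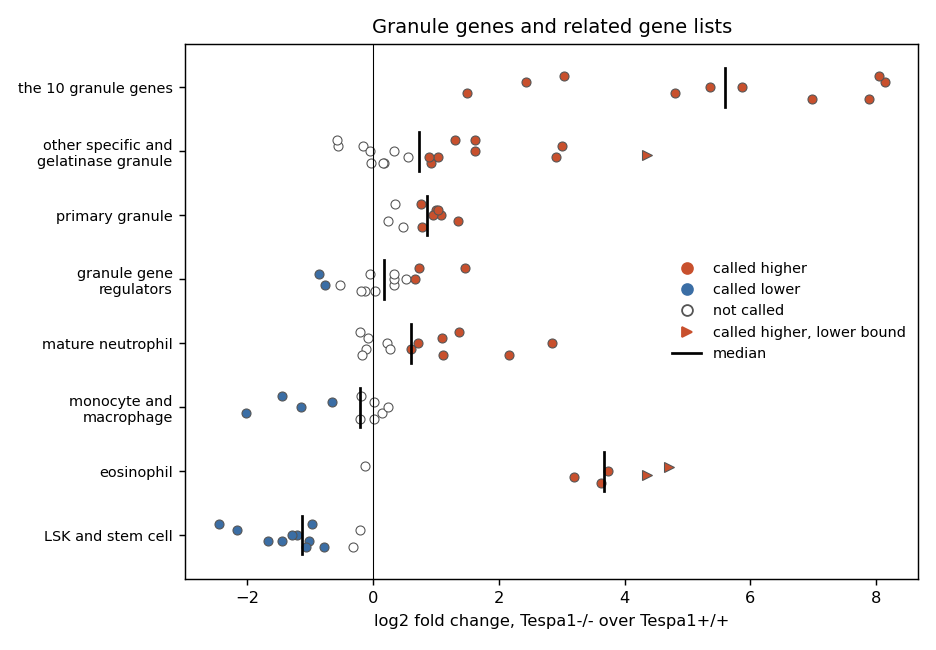
log2 fold change (Tespa1-/- over Tespa1+/+) of each tested gene in the 10 granule genes and 7 related lists, filled red where called higher, blue where called lower and open where not called. Triangles are lower bounds for genes at 0 in all Tespa1+/+ libraries and lines are medians, which run from 5.60 for the 10 granule genes to -1.13 for the LSK and stem cell genes.

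Markers of other cells that a sorted fraction could hold moved in different directions. Of 10 monocyte and macrophage genes, none was higher and 4 were lower, with a summed level of 1001 to 1019 CPM in the wild type and 804.5 to 837.2 CPM in Tespa1-/- libraries. Of 6 tested eosinophil genes of 8 listed, 5 were higher (median 3.68). These values are a description only, because Epx, Ear1, Ear2 and Ear6 passed the filter solely through their Tespa1-/- counts. The summed level of the eosinophil list was 17.4 to 20.6 CPM in wild-type and 47.3 to 51.4 CPM in Tespa1-/- libraries, while Ccr3 had at most 3 counts in any library. Erythroid genes were mixed, with 3 higher, all of them globin genes, and 3 lower of 7 tested, and summed to 111.6 to 116.3 and 81.5 to 87.8 CPM. Basophil and mast cell genes (0 higher and 2 lower of 6), megakaryocyte genes (0 and 3 of 6), B cell genes (0 and 5 of 7) and T cell genes (0 and 3 of 4) included no higher gene, and plasma cell genes had 2 higher (Jchain at 1.18 and Igkc at 1.16) and 3 lower of 7, with sums of 501.6 to 519.8 and 594.5 to 619.5 CPM. For all lists, 14.0% of all genes tested were higher and 19.2% were lower. The part of other cells in the granule gene counts was not tested.

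Finally, the genes whose profile over the 6 libraries was nearest to the mean of the 10 granule genes were identified, by Euclidean distance of log2 CPM. This distance reflects abundance as well as change. The mean does not stand for every granule gene: Mmp8 (4.25), Retnlg (4.925) and Lcn2 (9.425, rank 7948 among tested genes) lay farther from it than all genes named next. The nearest was the immunoglobulin constant gene Ighg2b at a distance of 1.43, with counts of 3, 18 and 6 in the wild type and 422, 352 and 346 in Tespa1-/- libraries. Next were the eosinophil granule genes Prg2 (2.96) and Epx (3.01), then Trib3 (3.02), Lipg (3.20), Ighv1-74 (3.26), Igkv4-55 (3.53), Ifitm6 (3.53), Ugt1a8 (3.70) and Degs2 (3.81). Of these, Ugt1a8 was uneven, at 142, 23 and 168 counts in Tespa1-/- libraries. Genes with 10 or fewer counts in each Tespa1+/+ library and 100 or more in each Tespa1-/- library numbered 9 in the whole table. They were Ltf, Camp, Ngp, Chil3 and 5 immunoglobulin gene segments.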

How the data were processed

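The labels describe poly-A RNA converted to stranded paired-end libraries. Submitters' processing notes name CASAVA 1.8, HISAT2, StringTie, edgeR and build GRCm38; whether counting used the strand is not given in the sources used here. The authors deposited 1 table of raw counts and FPKM values for 55487 genes; the deposited FPKM equal counts per library total and 1 fixed length per gene. Of these genes, 55227 were in GENCODE M21. The granule genes and all lists were chosen with earlier results of these data known. Counts were filtered with filterByExpr, scaled by TMM and compared in edgeR 4.0.16 (glmQLFTest, quasi-likelihood, two-sided, 6 libraries, no covariates, Benjamini-Hochberg over 15332 genes) in R 4.3.3. Counting ratios carry exact (Clopper-Pearson) 95% intervals; with no molecular identifiers, reads need not be separate molecules, and intervals and floors cover counting error only. Genes named were the 10 granule genes, Tespa1, list members and the 10 nearest profiles. On simulated counts, edgeR recovered 99.5% of 200 changed genes among 15072, with 5 false calls. On counts simulated with a length trend it recovered 91% of 200 among 15113, with 2308 false calls, and 98.5% with 3 false calls once a length offset was used. The changed genes of both simulations were well above 0 counts and had smaller folds than the granule genes near 0 in the wild type. Recovery of genes like those was not simulated. Same-numbered replicates did not deviate together (correlations 0.011 to 0.060).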

Additional observations from a re-analysis of the deposited data

How the results depend on the processing

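Each of the 10 granule genes kept its direction and its call under every alternative that tested it, 17 or 18 per gene: RLE factors, library totals alone, no filter, DESeq2 1.42.0, at least 10 counts in every sample, glmTreat, a prior count of 2, limma-trend (limma 3.58.1) on log2(FPKM + 1) or log2(FPKM + 0.1), length offsets, the replicate block, and leaving out each library. The largest adjusted p was 0.00284, for Mmp8 with glmTreat. All 10 were chosen with earlier results of these data known. The 7 that passed the filter solely through their Tespa1-/- counts had to differ, so their kept calls are a description only. Requiring at least 10 counts in every sample left 3 genes to test (Lcn2, Fcnb and Mmp8), all 3 called higher. With the replicate block, 10 were called; among the granule genes and lists it ended only the call of Irf8 (adjusted p 0.0809). On log2(FPKM + 1), which shrinks low genes by construction, log2 fold changes ran lower, at 0.82 for Mmp8, 1.24 for Mmp9 and 3.20 for Ltf. Over all genes, glmTreat against a fold of 1.5 called 1020 higher and 1807 lower, log2(FPKM + 1) 1070 and 1626, and log2(FPKM + 0.1) 1365 higher. Of the regulators, 1 was called higher under each of these 3. Depth limits the 7 genes near 0 in Tespa1+/+ LSKs, whose folds have wide intervals.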

Other observations

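Granule genes of another granulocyte were among those that rose. Prg2, which encodes eosinophil major basic protein, had counts of 38, 54 and 26 in the wild type and 421, 336 and 318 in Tespa1-/- libraries (log2 fold change 3.73 ± 0.11 SE, edgeR adjusted p 1.0e-06). Epx, eosinophil peroxidase, had 13, 22 and 6 against 97, 99 and 59 (3.19 ± 0.23 SE, edgeR adjusted p 2.4e-05). The eosinophil ribonuclease genes Ear1 and Ear6 had no wild-type count and were at least 20.6-fold and 26.0-fold higher against a floor of 3 counts over the group, and Ear2 was counted 4, 2 and 0 times against 18, 23 and 13 (log2 fold change 3.63, and 4.64 without Tespa1+/+ replicate 1). Members of the Ear family are similar in sequence, so their counts are uncertain. Epx, Ear1, Ear2 and Ear6 passed the filter solely through their Tespa1-/- counts, so their calls are a description only. Siglecf, a surface lectin of eosinophils, was not called (-0.13 ± 0.11 SE, edgeR adjusted p 0.363), and its levels of 15.5 ± 1.74 and 14.3 ± 1.43 CPM (SD, n = 3 per group) overlapped.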
